A study of Caenorhabditis elegans with 2 samples.

Results

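The strong SNPC-4 peaks of chromosome X that lay away from annotated gene starts were described here. Members were chosen by pooled peak signal and by position: of the 3000 peaks of highest signal in the pooled ce11 list, those on X were kept whose summit had no 5′ end of a listed gene within 300 bp. Listed genes were protein_coding, snRNA, snoRNA, tRNA, miRNA and rRNA genes and the sls- and smy- genes of the WBcel235 Ensembl annotation. The rule kept 413 of the 3000 peaks, out of 576 on X, while the whole pooled list held 30000 peaks. Pooled signal selected the peaks, so signal, the reproducible list and matches in the replicates are given as descriptions. Peaks are not replicates of a condition, and no test over samples exists in this design.

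Binding was measured by ChIP-seq in whole Caenorhabditis elegans at the L4 stage, the last larval stage, in animals of mixed sex. The strain, OP179, carries the unc-119(ed3) mutation on chromosome III and the integrated transgene wgIs179 for eGFP-tagged SNPC-4. There were 2 biological replicates in 1 group, and no untagged strain or input sample was analysed here, so no background could be measured in the same way. Whole animals were used, so the tissue in which a peak arises cannot be told apart.

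SNPC-4 is the worm counterpart of the largest subunit of SNAPc, the complex that binds the proximal sequence element upstream of small nuclear RNA genes and recruits RNA polymerase II or III. In C. elegans it is also known for its part in the transcription of 21U-RNA genes. Chromosome X has another well-known set of sequence-marked sites, the recruitment sites at which the dosage compensation complex loads in hermaphrodites before it spreads along X. Many worm messages are trans-spliced, so an annotated 5′ end can lie some way downstream of the site where transcription starts.

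The strongest members are shown first, because their windows hold the letters to which most of the results below refer. Each is the summit base with 100 bp to either side, on the plus strand of ce11, read from the RefSeq WBcel235 genome. Capitals mark GCGGAACC or its other strand GGTTCCGC, and GGCCGACA or its other strand TGTCGGCC. The name is that of the protein-coding gene that holds the summit, otherwise of the one with the closest 5′ end.
Y15E3A.5, chrX:15345450-15345650, plus strand: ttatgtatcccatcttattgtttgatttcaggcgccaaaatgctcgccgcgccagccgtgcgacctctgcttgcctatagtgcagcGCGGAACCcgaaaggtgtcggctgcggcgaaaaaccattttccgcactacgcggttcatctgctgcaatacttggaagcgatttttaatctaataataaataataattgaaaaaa
M163.11, chrX:14477462-14477662, plus strand: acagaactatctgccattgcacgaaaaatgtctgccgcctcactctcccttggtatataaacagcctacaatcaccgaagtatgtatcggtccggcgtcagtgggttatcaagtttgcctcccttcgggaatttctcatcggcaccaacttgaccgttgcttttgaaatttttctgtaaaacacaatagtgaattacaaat
mrp-5, chrX:14938307-14938507, plus strand: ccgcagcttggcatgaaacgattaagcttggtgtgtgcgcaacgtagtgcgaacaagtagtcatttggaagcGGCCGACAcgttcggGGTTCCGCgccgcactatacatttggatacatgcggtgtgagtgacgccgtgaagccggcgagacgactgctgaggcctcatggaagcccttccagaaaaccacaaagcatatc
B0410.3, chrX:2892000-2892200, plus strand: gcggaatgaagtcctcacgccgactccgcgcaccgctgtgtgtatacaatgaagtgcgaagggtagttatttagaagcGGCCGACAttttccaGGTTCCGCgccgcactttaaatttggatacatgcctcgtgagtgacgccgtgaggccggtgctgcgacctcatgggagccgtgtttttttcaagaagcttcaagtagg
K08B5.1, chrX:16566462-16566662, plus strand: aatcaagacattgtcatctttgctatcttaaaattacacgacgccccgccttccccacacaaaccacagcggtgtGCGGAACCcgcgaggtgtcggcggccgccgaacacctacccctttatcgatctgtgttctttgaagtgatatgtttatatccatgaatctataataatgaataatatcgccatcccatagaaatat
Y71H10B.1, chrX:2843651-2843851, plus strand: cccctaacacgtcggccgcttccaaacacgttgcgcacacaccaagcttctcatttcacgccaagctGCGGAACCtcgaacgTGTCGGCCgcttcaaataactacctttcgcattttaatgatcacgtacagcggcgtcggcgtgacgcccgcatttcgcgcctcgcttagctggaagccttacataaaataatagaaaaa
ocr-3, chrX:15171077-15171277, plus strand: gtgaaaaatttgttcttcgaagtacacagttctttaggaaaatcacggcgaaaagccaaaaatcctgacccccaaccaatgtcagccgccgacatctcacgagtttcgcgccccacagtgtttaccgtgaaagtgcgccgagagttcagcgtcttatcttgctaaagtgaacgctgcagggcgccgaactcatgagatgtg
K08B5.1, chrX:16564603-16564803, plus strand: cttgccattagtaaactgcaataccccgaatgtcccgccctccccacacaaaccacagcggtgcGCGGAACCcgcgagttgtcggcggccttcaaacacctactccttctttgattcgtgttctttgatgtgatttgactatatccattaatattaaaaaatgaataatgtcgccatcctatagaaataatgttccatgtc

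Only exact matches were counted, here and below. The windows of mrp-5, B0410.3 and Y71H10B.1 hold both 8-mers. Those of Y15E3A.5 and both peaks near K08B5.1 hold GCGGAACC, followed by a near match to TGTCGGCC that was not counted. Those of M163.11 and ocr-3 hold no exact copy of either, and in the ocr-3 window a near match to GGCCGACA was not counted. The next windows, at gnrr-4 and adm-2, are shown because they are among the 4 next strongest members with GCGGAACC and hold no exact GGCCGACA. In the adm-2 window a near match to GGCCGACA was not counted.
gnrr-4, chrX:5753240-5753440, plus strand: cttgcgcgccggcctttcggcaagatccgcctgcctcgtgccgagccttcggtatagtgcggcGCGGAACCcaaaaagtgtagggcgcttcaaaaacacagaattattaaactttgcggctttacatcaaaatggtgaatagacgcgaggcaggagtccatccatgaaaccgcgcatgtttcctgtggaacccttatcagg
adm-2, chrX:13690452-13690652, plus strand: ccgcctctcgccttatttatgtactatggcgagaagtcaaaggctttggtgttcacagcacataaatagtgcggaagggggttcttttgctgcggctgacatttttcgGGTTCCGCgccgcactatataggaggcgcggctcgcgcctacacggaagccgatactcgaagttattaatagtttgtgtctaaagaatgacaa

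In 39 members exact copies of the 8-mers stood in a fixed arrangement: GGCCGACA, then 7 bases, then GGTTCCGC on the same strand. These are 9.44% of members, against 2.63% of all 3000 peaks. Arrangements with a near match to either 8-mer were not counted. The 45 bp around the arrangement are shown for the 10 strongest such members, all read in the direction of the arrangement so that they align base for base. Capitals mark the 2 8-mers.
mrp-5, chrX:14938371-14938415, plus strand: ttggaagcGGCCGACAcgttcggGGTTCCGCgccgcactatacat
B0410.3, chrX:2892070-2892114, plus strand: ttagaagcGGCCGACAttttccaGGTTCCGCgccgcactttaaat
Y71H10B.1, chrX:2843704-2843748, minus strand: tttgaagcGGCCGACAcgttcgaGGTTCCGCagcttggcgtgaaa
gbb-1, chrX:2960890-2960934, plus strand: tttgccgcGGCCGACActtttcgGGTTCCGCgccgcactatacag
F54G2.1, chrX:2663977-2664021, plus strand: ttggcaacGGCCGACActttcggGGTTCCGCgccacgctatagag
F56F10.1, chrX:872133-872177, minus strand: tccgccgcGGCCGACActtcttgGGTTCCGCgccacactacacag
H40L08.3, chrX:15073672-15073716, plus strand: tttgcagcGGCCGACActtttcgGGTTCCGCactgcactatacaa
nfki-1, chrX:15362345-15362389, plus strand: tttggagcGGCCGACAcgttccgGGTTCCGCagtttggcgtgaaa
F52E10.4, chrX:16289794-16289838, minus strand: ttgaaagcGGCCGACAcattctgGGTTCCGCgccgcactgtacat
F35H12.1, chrX:936198-936242, minus strand: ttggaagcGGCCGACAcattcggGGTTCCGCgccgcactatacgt

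A different motif, GCGCAGGG, holds core letters of the recruitment sites of the dosage compensation complex. The 36 bp around it are shown for the 5 strongest members that have it, in the direction of the motif, which capitals mark.
F22H10.2, chrX:16682158-16682193, minus strand: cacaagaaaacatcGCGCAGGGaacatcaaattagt
ins-39, chrX:1345042-1345077, plus strand: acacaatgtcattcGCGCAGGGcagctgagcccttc
mom-1, chrX:6296562-6296597, plus strand: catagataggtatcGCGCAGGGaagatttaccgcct
nspc-17, chrX:14525886-14525921, minus strand: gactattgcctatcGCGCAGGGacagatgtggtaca
F19H6.6, chrX:12363025-12363060, minus strand: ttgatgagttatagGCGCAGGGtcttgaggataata

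The peak signal of the members ran from 8.95 to 72.4 with a median of 11.5, and the quartiles were 9.86 and 15.8. Signal is the value the authors' peak caller gave each peak, and its scale was not given in the sources used here. Over all 3000 peaks the median was 11.4 and their highest signal was 1230, so the members sat at the level of the list as a whole but far below its top. The strongest member ranked 85 of 3000. The −log10 q values of the members ran from 1.58 to 3.16, a value that the strongest peaks share as a ceiling. At the limit, the last members inside were at an intron of K09A9.6 (8.97), next to F52G3.8 (8.97) and in an exon of T08G2.2 (8.95). The first X peaks outside were in an exon of gpcp-1 and in introns of mboa-1 and nep-4, each with a signal of 8.92.

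The strongest member had a pooled signal of 72.4, with 39.9 in replicate 1 and 33.3 in replicate 2. Its summit, at X position 15345550, lay outside protein-coding genes, 4992 bp downstream of the 5′ end of Y15E3A.5. The next, at 14477562 and named M163.11 above, lay 17 bp inside the unclassified non-coding RNA gene M163.12 and 695 bp from the closest listed start, that of the snRNA gene M163.13. Its pooled signal was 66.8, and here replicate 1 (48.1) was well above replicate 2 (17.6). Near mrp-5, which encodes an ABC transporter, the pooled signal was 60.7, with 15.3 and 43.9 in replicates 1 and 2. The values at B0410.3 were 55.0 pooled, 19.8 and 33.6. The replicates therefore ranked the strongest members in different orders. In 13 of the 15 strongest members replicate 2 was the higher, and all 15 were matched in both replicates.

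The first of the peaks near K08B5.1 had 53.8 pooled, 17.0 in replicate 1 and 36.3 in replicate 2. The other, 1859 bp to its left and 27 bp upstream of the unclassified ncRNA gene K08B5.8, had 44.0, 16.1 and 25.96. The peak 3459 bp upstream of the start of Y71H10B.1 had 52.1, 10.9 and 42.4. Within introns, the strongest peaks were those of ocr-3, a TRPV channel subunit, and gbb-1, a subunit of the GABA-B receptor. The ocr-3 peak had 45.5 pooled, 15.3 in replicate 1 and 30.9 in replicate 2. The gbb-1 peak had 43.7, 16.1 and 26.7. Both lay well inside their gene, 2453 bp and 2965 bp from its 5′ end. Of the 15 strongest members, 11 lay outside protein-coding genes, 4 in an intron and 0 in an exon.

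Members were densest in the right part of X and sparsest in its middle. The outer parts of X, meaning the first 5.91 Mb and the last 5.91 Mb of its 17.7 Mb, held 333 of the 413 (80.6%, Clopper-Pearson 95% interval 76.5 to 84.3). They held 64.5% of the 3117 listed 5′ ends of X. Of the 163 X peaks with a listed start within 300 bp they held 74.8%. The difference between the sets of peaks was not tested. The left part held 134 members (22.7 per Mb), the middle 80 (13.5 per Mb) and the right part 199 (33.7 per Mb). Intervals on shares here and below cover the counting of peaks only.

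**Figure D1:**
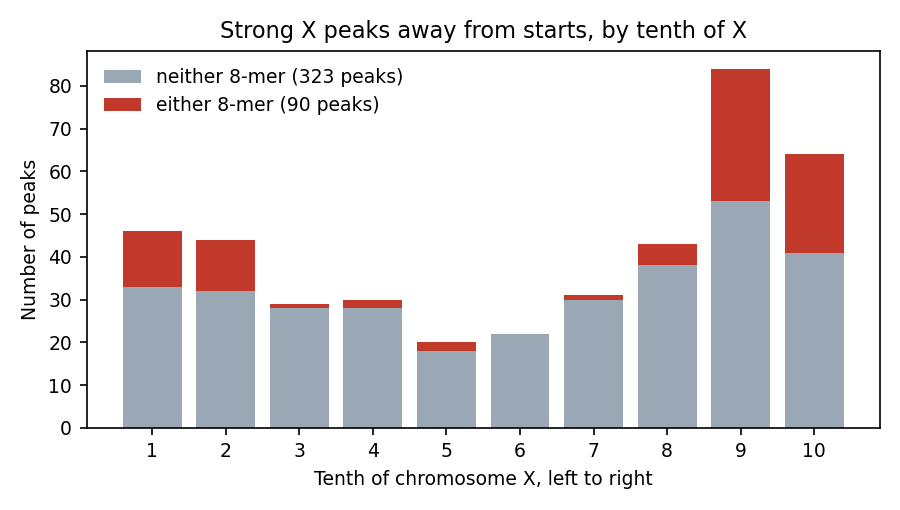
Number of members in 10 equal bins along chromosome X, from its left to its right end, with the 90 members that hold GCGGAACC or GGCCGACA stacked on the 323 that hold neither. The ninth bin is the highest with 84 members, and the bins in the middle of X are the lowest, with 20 and 22.

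Among 10 equal bins of X, the members numbered 46, 44, 29, 30, 20, 22, 31, 43, 84 and 64 from left to right. The ninth bin thus held 47.4 members per Mb, against 23.3 per Mb over the whole of X. The listed 5′ ends did not follow this order: the ninth bin held 10.2% of them and the last 7.83%. The stretch from 14 to 17 Mb alone held 138 members (33.4%, 28.9 to 38.2). On the autosomes, peaks away from starts numbered 18.3 per Mb. Listed starts are also sparser on X, with 176 per Mb against 221 per Mb on autosomes, and 71.7% of X peaks were away from a start against 62.4% of autosomal ones.

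The spacing of members is given without a comparison set, and their density differs along X, so clustering was not tested. The gap from one member to the next had a median of 21.2 kb and ran from 205 bp to 331 kb, and 196 members lay within 20 kb of the one before. Stretches of 20 kb with at least 2 members numbered 106, and 41 of them held at least 3. The stretch with the highest summed signal held 5 members in 18.3 kb at K08B5.1 and ser-1, a serotonin receptor gene. Other stretches with 5 members lay at kin-20, jud-4 and the tyramine receptor gene ser-2, at taf-3 and nhr-28, at abts-4, mdl-1 and R03E9.2, at C30E1.4 and F52G3.8, and at the sirtuin genes sir-2.2 and sir-2.3. Some neighbours share a replicate peak: 6 members fell on 3 peaks of replicate 1 and 2 members on 1 peak of replicate 2.

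More members lay outside protein-coding genes than inside an intron or an exon. Of the 413 summits, 216 were outside (52.3%, 47.4 to 57.2), 142 in an intron (34.4%, 29.8 to 39.2) and 55 in an exon (13.3%, 10.2 to 17.0), of which 51 were in coding sequence. Of the X sequence more than 300 bp from a listed start, 44.1% is outside genes, 32.0% intronic and 23.9% exonic. Exons thus held a lower share of the members than of the sequence available. Autosomal peaks away from starts were outside in 40.9%, in introns in 33.0% and in exons in 26.1% of cases. The difference between the members and the autosomal peaks was not tested.

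**Figure D2:**
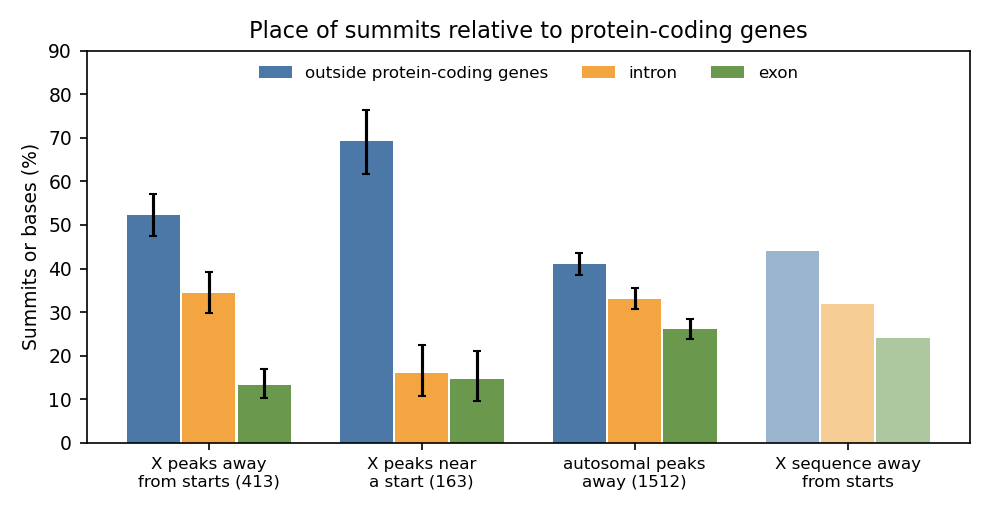
Share of summits outside protein-coding genes, in introns and in exons for the 413 members, the 163 X peaks with a listed start within 300 bp and the 1512 autosomal peaks away from starts, with Clopper-Pearson 95% intervals; the pale bars give the share of the bases of X more than 300 bp from a listed start and have no error. Exons take 13.3% of the members and 26.1% of the autosomal peaks.

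Exonic members were the weakest. Their median signal was 10.004, against 12.1 in introns and 11.9 outside genes. In 4 groups of members ranked by pooled signal, the share in exons was 0.962% in the highest group, then 9.71%, 20.4% and 22.3%. Of the 55 exonic members, 13 were matched in both replicates, against 66 of the 142 intronic and 113 of the 216 outside genes. These figures follow the signal that chose the members and stand as a description. The share in exons was 5.26% when the rule took the 1500 strongest peaks and 20.6% when it took the 5000 strongest.

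The distance from a summit to the closest listed start had a median of 1939 bp, and 302 members were more than 1000 bp away. There were 58 members over 5000 bp and 10 over 10 kb from any listed start. The most remote, 18497 bp away, was in an exon of unc-2, which encodes a voltage-gated calcium channel subunit. The direction was even, with 209 members upstream of their closest listed start and 204 downstream. For 380 members that start belonged to a protein-coding gene.

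In all, 197 members lay in 176 protein-coding genes, and 18 of these genes held at least 2. The gene with the most was lin-14, a heterochronic gene that sets the timing of larval fates, with 4 intronic members. Its strongest, at 11482399, had a pooled signal of 13.3, with 3.11 in replicate 1 and 10.1 in replicate 2. The other 3 had pooled signals of 11.1, 9.998 and 9.45 and no matching peak in replicate 1, while replicate 2 gave 9.84, 8.86 and 8.70. Of the 4 lin-14 members, only the strongest was thus matched in replicate 1.

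The gene of the TFIID subunit taf-3 held 3 intronic members, with pooled signals of 25.3, 20.4 and 15.6. Replicate 1 gave 9.35, 9.69 and 9.35, and replicate 2 gave 13.7, 9.89 and 10.5. The first and last of these are 211 bp apart and fell on the same peak of replicate 1. The 3 members in unc-2 had signals of 10.3, 10.3 and 9.94 and were matched in replicate 2 alone. Each of lin-14, taf-3 and unc-2 had 1 member with GCGGAACC or GGCCGACA. Genes with 2 members included gbb-1, H40L08.3, the AMP-activated kinase gene aak-2, the anion transporter gene abts-4, the casein kinase gene kin-20, scd-1 and the LIM-binding gene ldb-1. In H40L08.3 both members held the paired arrangement, and their pooled signals were 29.1 and 11.5.

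The base composition of the members was distinct from their surroundings. Median G+C content of the summit windows was 44.8%, with a range of 26.9 to 64.2%. In windows centred 1000 bp to either side it was 35.3%, close to the 35.2% of chromosome X as a whole. The summit was richer in G+C than its flanks in 369 of 413 members (89.3%, 86.0 to 92.2), by a median of 9.95 percentage points. With the same rule on replicate 1 alone the median excess was 5.72 points, and on replicate 2 alone 9.45 points. The observed over expected ratio of CpG was 1.05 at summits and 0.941 and 0.957 in the left and right flanks.

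**Figure D3:**
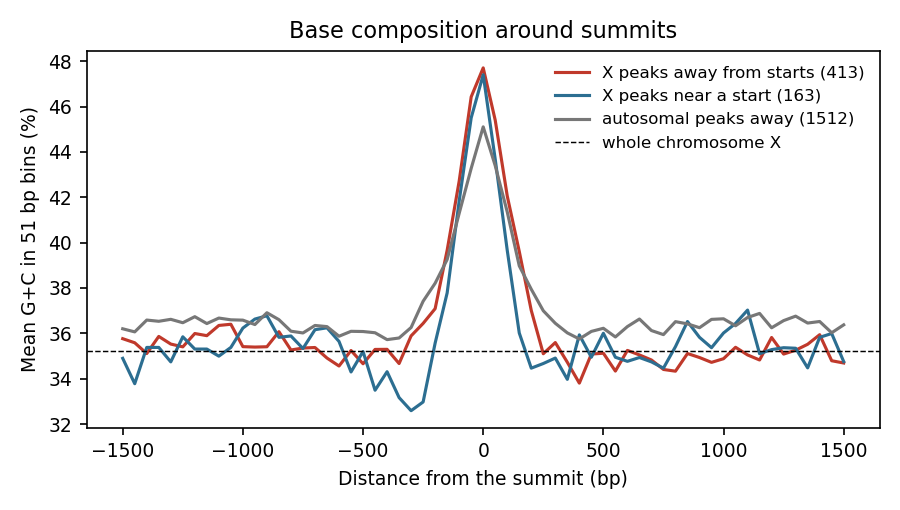
Mean G+C content in 51 bp bins by distance from the summit for the members, the X peaks near a start and the autosomal peaks away from starts, with the value of the whole of X (35.2%) as a dashed line. All 3 curves rise at the summit and return to the level of the flanks within about 300 bp.

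The other peaks of the list showed the rise too. X peaks near a start had the same median of 44.8%, with 81.6% of summits above their flanks, and autosomal peaks away from starts had 42.8%, with 78.8% above. By signal, median G+C was 49.3% in the highest of the 4 groups of members and 43.3% in the lowest. Runs of A followed the opposite course: AAAAAAAA was in 48 summit windows but in 100 and 105 of the left and right flanks. The 48 are 11.6% of members, near the 13.5% of all 3000 peaks. Soft-masked repeat sequence filled more than 50% of the window in 14 members (3.39%, 1.87 to 5.62), against 8.87% of all 3000 peaks, 3.07% of X peaks near a start and 8.53% of autosomal peaks away from starts.

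Of the 8-mers counted on both strands, those with the largest excess at member summits over flanks fell into 2 families. GCGGAACC was in 70 members (16.9%, 13.5 to 20.9), against 2 and 1 in the left and right flanks. It overlaps CGGAACCC, which was in 65 members. GGCCGACA was in 61 (14.8%, 11.5 to 18.6), against 4 and 1, and it overlaps CGGCCGAC and GCGGCCGA, which were in 66 and 65. Of 88153 tiles of the same length along X, 0.358% held GCGGAACC and 0.417% held GGCCGACA. The copies lay at the summit itself: of 95 copies of GCGGAACC within 1000 bp of a summit, 76 were within 100 bp and 58 within 50 bp.

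**Figure D4:**
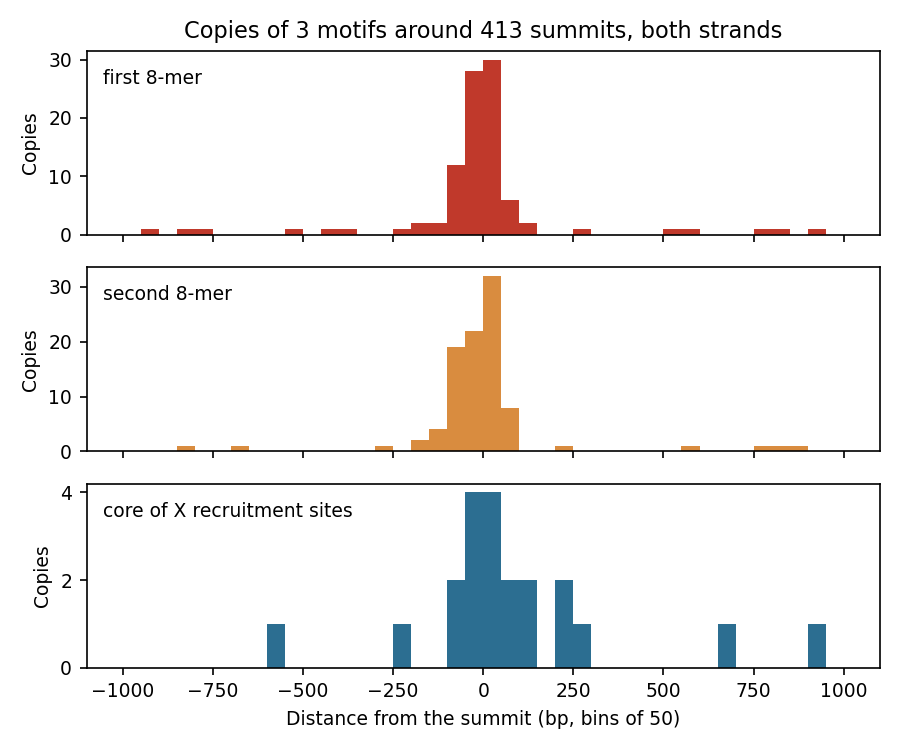
Copies of GCGGAACC (top), GGCCGACA (middle) and GCGCAGGG (bottom) on both strands in 50 bp bins by distance from the 413 summits. Of the 95, 95 and 21 copies within 1000 bp, 76, 81 and 12 lie within 100 bp of the summit.

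Either 8-mer was present in 90 of the 413 members (21.8%, 17.9 to 26.1), against 9.23% of all 3000 peaks. With the same rule on replicate 1 alone the share was 12.8%, and on replicate 2 alone 18.5%. Of the 163 X peaks near a start 4 had one (2.45%, 0.673 to 6.16), and of the autosomal peaks away from starts 123 of 1512 (8.13%, 6.81 to 9.63). These differences were not tested, and the 8-mers were picked with earlier results of these data known. Both 8-mers were in 41 members. In members, GGTTCCGC and GGCCGACA formed 62 combinations on 1 strand, and in 43 of them exactly 7 bases lay between. This spacing was noticed in the data. The pair at this spacing was in 39 members (9.44%, 6.80 to 12.7), against 79 of all 3000 peaks (2.63%). It was in 27 of the 1512 autosomal peaks away from starts (1.79%) and in 2 of the 163 X peaks near a start (1.23%). These differences were not tested either. At the 65 peaks of the list with a snRNA, sls- or smy- gene start within 300 bp, GCGGAACC was in 19 (29.2%, 18.6 to 41.8). There GGCCGACA was in 1 and the pair in 0. The second 8-mer and the pair were not absent from small RNA genes in general. At the 314 peaks at small RNA genes, GGCCGACA was in 23 (7.32%), the pair in 8 (2.55%) and either 8-mer in 48 (15.3%).

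Over the 43 copies of the pair, some of the bases around the 8-mers were shared too. Of the 29 positions outside the 8-mers in the 45 bp shown, 12 had the same letter in at least 80% of copies. In the gap, the C after the first 8-mer was shared by 39 copies. At these 29 positions, pairs of copies were identical at a median of 58.6%, with a range of 20.7 to 96.6%. The best agreement lay before the first 8-mer, where 6 of 8 positions passed the same mark, as did 3 of 14 positions after the second.

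Most members with either 8-mer resembled sequence elsewhere in the genome. A partial match of at least 75% identity over at least 40 bp elsewhere in the genome was found for 85 of the 90. It was found for 51 of the 323 members with neither. Members as a set were near the background, with 32.9% against 29.0% of all 3000 peaks. The share was 34.4% for X peaks near a start and 24.0% for autosomal peaks away from starts. The number of such matches had a median of 243.5 per member with an 8-mer and 361 per member with the pair, all 39 of which had at least 1. Members with neither 8-mer had up to 1948, with a median of 0. Whether the matches of different members are copies of 1 sequence was not tested. Near-complete second copies, with at least 90% identity over at least 80% of the window, were found for 4 of the 90. Over all members their share was 1.69%, near the 2.03% of all 3000 peaks. How reads from repeated sequence were placed was not given in the sources used here.

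In the genome sequence, the pair occurs 78 times on X, or 4.402 per Mb, and 170 times on the autosomes, or 2.06 per Mb. Of the X copies, 45 lay within 100 bp of the summit of 1 of the 3000 peaks (57.7%, 46.0 to 68.8), 43 of them at a member. Of the autosomal copies 43 did (25.3%, 19.0 to 32.5). Nearly all copies lay in the outer parts of their chromosome, 77 of 78 on X and 169 of 170 on autosomes. The difference in occupancy between X and autosomes was not tested.

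The 90 members with either 8-mer also lay mostly in the outer parts. Of these, 87 lay in the outer parts of X (96.7%, 90.6 to 99.3), against 246 of the 323 others (76.2%, 71.1 to 80.7), and 53 of the 90 lay between 14 and 17 Mb. They lay in introns in 57 cases, outside protein-coding genes in 33 and in exons in 0. Of 26 pair members inside 1 gene, the pair was on the strand of the gene in 10 and on the other in 16. Their median G+C was 51.5%, against 43.8% in the others.

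By signal they were among the higher members, with a median of 15.7 against 11.01. In the 4 groups from highest to lowest signal, the 8-mers were in 45 of 104, 22 of 103, 17 of 103 and 6 of 103 members. All 90 had a match in replicate 2, where their median signal was 11.9, against 8.16 for the others. In replicate 1, 57 of the 90 had a match, with a median of 6.41 against 4.70. The strongest member with the pair, near mrp-5, ranked 159 in replicate 1 and 86 in replicate 2.

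GCGCAGGG was in 9 members (2.18%, 1.00 to 4.10), against 0.5% of all 3000 peaks. The left flanks held it in 0 members and the right flanks in 1, and 0.0851% of X tiles held it. It was in 2 of the 163 X peaks near a start and in 0 of the 1512 autosomal peaks away from starts, where the upper 95% bound was 0.244%. None of the 9 held GCGGAACC or GGCCGACA. The letters alone do not show that a site loads the dosage compensation complex, and binding of that complex was not measured.

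All 9 members with GCGCAGGG were in the authors' reproducible list and among the 3000 strongest peaks of each replicate. Their pooled signals, 22.9 to 38.9, all exceeded 21.4, the lowest of any member in that list. Among members that list followed pooled signal, so their place in it adds nothing to their signal. The strongest, 2573 bp downstream of the start of F22H10.2, had a pooled signal of 38.9, with 8.62 in replicate 1 and 27.5 in replicate 2. The peak 633 bp upstream of ins-39, an insulin-like peptide gene, had 38.1, 6.02 and 30.7. The peak in an intron of mom-1, which encodes the Porcupine-like enzyme needed for Wnt secretion, held 2 copies and had 38.0, 11.3 and 24.9. In these 3 replicate 2 had the higher signal.

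At nspc-17 the values were 37.8 pooled, 7.81 in replicate 1 and 28.4 in replicate 2. The only exonic member of the 9, in F19H6.6, went the other way, with 31.3 pooled, 21.2 in replicate 1 and 7.48 in replicate 2. The peak at gtr-1 had 29.99, 6.27 and 22.8 and held 2 copies. The remaining 3 had the lowest pooled signals of the 9. They were at F20B6.9 (27.0 pooled, 9.82 and 17.2 in replicates 1 and 2), W02H3.3 (25.8, 10.7 and 13.9, with 2 copies) and an intron of Y41G9A.17 (22.9, 9.43 and 8.91). Replicate 2 was the higher in 7 of the 9.

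The 9 were less rich in G+C than the members with either 8-mer, with a median of 40.3% and a median excess over the flanks of 3.23 percentage points. They were spread along X, with 7 of 9 in its outer parts, and 6 lay outside protein-coding genes. None had a partial match elsewhere. On X as a whole GCGCAGGG occurs 81 times, and 14 copies lay at 1 of the 3000 peaks (17.3%, 9.78 to 27.3). On the autosomes it occurs 233 times, with 4 copies at such a peak (1.72%, 0.470 to 4.34). This difference was not tested.

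Repeats of simple letters were counted as well. CACACACA was in 46 members (11.1%, 8.27 to 14.6), against 7 in each set of flanks, 1.24% of X tiles, 6.4% of all 3000 peaks and 7.01% of autosomal peaks away from starts. These 46 lay in introns in 24 cases and outside genes in 22, and 17 also held GCGGAACC or GGCCGACA. GAGAGAGA was in 24 members (5.81%), against 7 and 8 in the flanks, a share near the 5.87% of all 3000 peaks. The GATA-type letters TGATAA were in 56 members (13.6%) and in 75 and 79 of the flanks, a share near the 14% of all 3000 peaks.

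Core letters of tRNA and 21U-RNA promoters were in few members, and the rule itself had removed peaks at tRNA starts. GGTTCGA, core letters of the tRNA B box, was in 3 members (0.726%), against 3.87% of all 3000 peaks. It was in 1.32% of X tiles and in 1.32% of autosomal peaks away from starts. Of the 163 X peaks near a start 24 held it, a set that includes starts of tRNA genes, so that contrast follows from the rule. CTGTTTCA, the core found upstream of 21U-RNA genes, was in 2 members (0.484%), with 5 and 4 in the flanks. It was in 1.23% of all 3000 peaks and 1.42% of X tiles. AGACGCAG, the leading 8-mer of the autosomal peaks away from starts, was in 18 members (4.36%), against 1 and 0 in the left and right flanks and 0.563% of X tiles. It was in 123 of those 1512 peaks and in 7.4% of all 3000. None of GCGGAACC, GGCCGACA, GCGCAGGG, CACACACA and GAGAGAGA was found in the windows of 267 members.

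Unclassified non-coding RNA genes, the Ensembl biotype ncRNA, were not listed starts, so members could lie at them. A 5′ end of such a gene lay within 300 bp of 67 members (16.2%, 12.8 to 20.1), against 14.6% of all 3000 peaks, and the share was near that background. It was 28.2% for X peaks near a start and 9.99% for autosomal peaks away from starts. The 67 members involved 66 of the 2520 such genes on X. Summits lay upstream of the 5′ end in 34 and downstream in 33, at a median of −16 bp with a range of −283 to 264 bp, and 27 were inside the gene. Of the 67, 50 were outside protein-coding genes, and 4 held GCGGAACC or GGCCGACA.

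M163.12 (WBGene00045117, X 14477545 to 14477622, plus strand) and K08B5.8 (WBGene00220011, 16564730 to 16564828, plus strand), both described above, had the strongest of these peaks. Next came C09B7.8, with a summit 283 bp upstream of its 5′ end in an intron of F54G2.1 and signals of 34.8 pooled, 8.38 in replicate 1 and 27.1 in replicate 2. F33C8.9 had 34.6, 11.2 and 20.2, with its summit 202 bp upstream. K02B9.6, a gene of 54 bp for whose peak the closest protein-coding start is that of the Argonaute gene alg-1, had 34.4, 9.97 and 22.9, with its summit 45 bp upstream. At C30E1.9, a gene of 14770 bp, replicate 1 (3.35) was far below replicate 2 (25.4). These 6 are in the reproducible list, while the other 61 are not, a split that follows pooled signal.

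The next 4 were weaker. F19C6.11 had a pooled signal of 20.4, with 6.004 in replicate 1 and 16.5 in replicate 2. R03E9.7 had 19.5, 6.39 and 10.8. F46F2.10, within an intron of kin-20 and with its summit 36 bp downstream of its start, had 19.1, 7.41 and 10.9. AH9.7 had 18.9 pooled and 14.9 in replicate 2, with no match in replicate 1. Other non-coding biotypes were rare: a lincRNA 5′ end lay within 300 bp of 3 members, a piRNA and a pseudogene of 1 each, and an antisense RNA of 0.

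The replicates differed in how many members they held. Replicate 2, whose list held 30000 peaks, had a summit within 200 bp of 389 members (94.2%, 91.5 to 96.2), against 93.9% of all 3000 peaks. Replicate 1, whose list held 11042, matched 215 (52.1%, 47.1 to 57.0), against 60.1%. Both matched 192 (46.5%, 41.6 to 51.4), against 54.6%, and 1 member had no match in either. Since the lists differ in length, the 3000 strongest of each were also used. Then replicate 1 matched 147 members (35.6%; 42.1% of all 3000) and replicate 2 matched 267 (64.6%; 61.7%). Both matched 87 (21.1%; 23.7%), a share near that of all 3000 peaks.

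**Figure D5:**
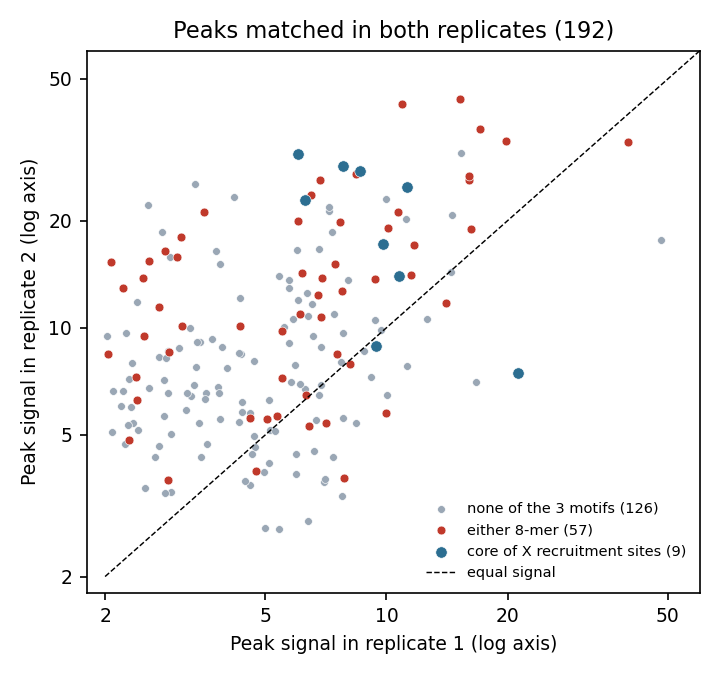
Peak signal in replicate 1 against replicate 2, both on log axes, for the 192 members matched in both, with the 57 that hold either 8-mer, the 9 that hold GCGCAGGG and the rest in different colours. Most points, 153 of 192, lie above the line of equal signal.

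Among the 192 members matched in both, replicate 2 had the higher signal in 153. Its values were higher over the whole list too. For all 3000 peaks, the median signal of the matches was 5.11 in replicate 1 (1803 peaks) and 8.31 in replicate 2 (2816 peaks). The share of all matched peaks with the higher signal in replicate 2 was not counted. Across the 192 members, which share the same 2 libraries and were chosen by their pooled signal, Spearman's rho between the replicates was 0.360. It was 0.359 over the 1638 matched peaks of all 3000, near that of the members. For autosomal peaks away from starts it was 0.264, and for X peaks near a start 0.211. Within the 100 strongest members it was 0.109 (86 matched), and within the other members -0.205 (106 matched). The reproducible list, built by the authors with the irreproducible discovery rate (IDR), held 52 members (12.6%, 9.55 to 16.2), against 12.7% of all 3000 peaks. These were the 52 members of highest pooled signal, from 21.4 upward, so among members the list acts as a signal limit. Of the 52, 49 were matched in replicate 1 and all in replicate 2. In the highest of the 4 signal groups 90 of 104 members were matched in replicate 1, then 49, 39 and 37 of 103. Taking the 3000 strongest peaks of each replicate alone, the same rule kept 344 X peaks in replicate 1 and 453 in replicate 2. Of these, 87 (25.3%) of replicate 1 and 86 (19.0%) of replicate 2 lay within 200 bp of a summit kept in the other replicate. The same share over all peaks of these lists was not measured, so this overlap is not a trait of the X peaks.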

How the data were processed

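Members and motif lists were chosen with earlier results of these data known. Peak signal and −log10 q values are as the authors deposited them in narrowPeak lists on ce11. These lists cover each replicate, the pooled replicates and a list thresholded by IDR. The peak caller, aligner, IDR threshold and scale of the signal were not given in the sources used here. No read counts were used, so depth is unknown.

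Summits were placed against Ensembl release 115 genes (WBcel235), and sequence came from the RefSeq WBcel235 genome. Replicate peaks matched when summits lay within 200 bp. Windows held the summit and 100 bp to either side, and flanks were centred 1000 bp away. Motifs were counted on both strands, by exact match only. Partial copies came from blastn 2.17.0 (e-value at most 1e-05). The pair, its spacing and genome-wide copies, the partial copies, AGACGCAG and the 4 signal groups were chosen after seeing the data. Shares carry Clopper-Pearson 95% intervals, which count peaks only, and no test over samples was possible. Python 3.11.15, pandas 2.3.3, numpy 2.4.6 and scipy 1.17.1 were used, and the pair search was tested on simulated sequence.

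Named by rule were the 15 strongest members, the 10 strongest at an unclassified ncRNA start, up to 10 genes and stretches with at least 2 members, and 3 peaks on each side of the limit. Members with GCGCAGGG and others singled out were named after their values were seen. The ce10 lists were not used. Alternatives were the number of strongest peaks, the start distance, transcript starts, each replicate alone, the match distance, list length, ncRNA distance and window size.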

Additional observations from a re-analysis of the deposited data

How the results depend on the processing

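No result reversed its direction, but nearly all are counts, shares or medians of 1 group and have no direction to reverse. The excess of G+C over flanks does have one, and it stayed positive. No paired analysis was possible because there is 1 group and nothing to compare between same-numbered samples. With the 1500 strongest peaks, the rule gave 209 members, with 5.26% in exons, 24.9% in the IDR list, 67.0%, 97.1% and 64.1% matched in replicate 1, replicate 2 and both, a median G+C of 47.3%, an excess over flanks of 12.2 points and 32.5% with either 8-mer. With the 5000 strongest the rule gave 728, with 20.6% in exons, 46.6% outside genes, 7.14% in the IDR list, 40.4% and 34.2% matched in replicate 1 and in both, G+C of 43.8%, an excess of 7.71 points, 75.1% in the outer parts of X and 14.8% with either 8-mer. With no listed start within 1000 bp, 40.1% were in introns, 47.0% outside genes and 26.2% held either 8-mer. Leaving out 1 replicate gave 344 to 453 members, 33.3 to 39.2% in introns, 13.1 to 18.8% in exons, G+C of 40.8 to 44.3%, an excess of 5.72 to 9.45 points, 76.2 to 78.4% in the outer parts and 12.8 to 18.5% with either 8-mer. The lowest G+C, excess and 8-mer share were those of replicate 1 alone. Matching within 100 bp gave 43.3%, 89.3% and 35.8% for replicate 1, replicate 2 and both, and within 400 bp 96.6% for replicate 2. The 3000 strongest peaks of each replicate gave 35.6%, 64.6% and 21.1%. An ncRNA start lay within 150 bp of 11.6% and within 1000 bp of 29.1%. With 50 bp and with 200 bp to either side of the summit, median G+C was 47.5% and 42.1%, and in the larger the excess was 6.98 points. The cause of these shifts was not tested. Of 99 alternatives, 59 were classed as the same and 40 as moved. For shares and medians, the same meant within the error of the value reported. The number of members has no such error, and counts such as 302 against 413 are among the 59. The 8-mer share and its alternatives were added after seeing the data. Depth is unknown, and replicate 1 has the shorter list, so a missing match there is not a measure of absent binding.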
